A study of Mus musculus with 16 samples.

Results

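Nuclear pore complexes and the soluble receptors that carry cargo through them were described from their transcripts in mouse erythroblasts. Members were the genes whose symbol begins with *Nup*, *Xpo*, *Ipo*, *Kpna* or *Kpnb* followed by a number, without *Xpo7* and without pseudogene names, whose counts over the 16 libraries summed to 10 or more. Of 41 genes with such a name, 37 were members, among 13318 genes that reached 10 counts and 46078 genes listed. The 4 left out were *Xpo7*, which the rule excludes, the pseudogene *Kpna2-ps* with 0 counts, *Nup62cl* with 0 counts and *Kpna7* with 1 count. GENCODE M21 lists 36 of the 37 members as protein-coding.

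The libraries came from polychromatic (Poly-E) and orthochromatic (Ortho-E) erythroblasts, which are successive stages of terminal erythroid differentiation, the Ortho-E stage coming just before the nucleus is expelled. Both were sorted by Ter119 and CD44 from steady-state bone marrow of wild-type (*Ypel4*+/+) and homozygous mutant (*Ypel4*-/-) mice, and dead cells were excluded with propidium iodide. Both genotypes are labelled with the C57BL/6N-A<tm1Brd> background and the strain allele Ypel4<tm1a(EUCOMM)Wtsi> of the stock WtsiIeg. The mutants carry the gene trap allele in every cell of the body, and the labels give no treatment and no age. Each of the 4 groups had 4 libraries, and totals ranged from 2670173 to 12451234 counts per library. The labels do not say that replicates are separate mice, so p-values measure only the spread between these libraries. In Poly-E *Ypel4* was lower in *Ypel4*-/- than in *Ypel4*+/+ libraries with a log2 fold change of −5.18 ± 0.24 (± standard error throughout for log2 fold changes). By the quasi-likelihood test of edgeR with adjustment after Benjamini and Hochberg, its adjusted p was 1.60e-06, and 0.286 with a block for the replicate number. In Ortho-E its log2 fold change was −4.58 ± 0.11 (adjusted p = 4.87e-24, edgeR), and in both populations the libraries of the genotypes did not overlap (p = 0.0286 in an exact two-sided permutation test, the smallest possible with 4 against 4 libraries). Within the 4 pairs of the same number in Poly-E the exact permutation p of *Ypel4* was 0.125, the smallest that 4 pairs allow.

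The pore is a ring-shaped channel through the nuclear envelope. Its scaffold consists of an outer ring, built from Y complexes, and an inner ring, and is anchored by membrane proteins. Nucleoporins rich in phenylalanine-glycine (FG) repeats fill the channel, filaments face the cytoplasm and a basket faces the nucleus. Importin alpha proteins bind the nuclear localization signal of a cargo and are carried in by importin beta, other members of the importin beta family bind cargo directly, and exportins carry cargo out together with the GTP-bound form of the GTPase Ran. In erythroblasts the nucleus condenses and is then expelled, while globin comes to make up most of the protein that is produced.

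From Poly-E to Ortho-E most pore and transport transcripts fell relative to other genes. In *Ypel4*+/+ mice 31 of 37 members were lower in Ortho-E and 2 were higher, against 32.1% and 26.4% of the 11747 genes tested (edgeR's quasi-likelihood test, adjusted p of at most 0.05). The members' median log2 fold change was −1.77, and that of all tested genes −0.19. The *Ypel4*-/- libraries had 30 of 36 tested members lower and 4 higher, against 31.5% and 29.5% of 11973 genes, with medians of −1.81 for the members and −0.09 for all genes. The 2 members that rose in both genotypes were *Nup133*, of the outer ring, and *Nup153*, of the nuclear basket, and the rise of *Nup153* turns to a fall when scaled by library totals. With the replicate number as a block, which pairs the populations, 4 members were higher in *Ypel4*+/+ mice instead of 2, the others being *Kpna1* and *Xpo4*, which were also higher in *Ypel4*-/- mice. Both of these turn lower by library totals.

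These values rest on TMM scaling, which sets the bulk of genes equal between libraries. Scaled by library totals instead, the median of all genes was −1.45 rather than −0.19 in *Ypel4*+/+ mice, and −1.47 rather than −0.09 in *Ypel4*-/- mice. On that scale 10.4% of all genes were higher and 60.3% lower in *Ypel4*+/+ mice, and of the members 1 was higher, *Nup133*, and 35 were lower, with a median of −3.05. For *Ypel4*-/- mice the shares were 11.2% and 60.9% of all genes, and of the members again *Nup133* alone was higher and 34 were lower, with a median of −3.22. Of all counts in a library, the members took 0.486% ± 0.024 (SD, n = 4) in *Ypel4*+/+ Poly-E and 0.117% ± 0.0055 in Ortho-E, with no overlap between the libraries. Without *Ypel4* they took 0.491% ± 0.028 in Poly-E and 0.119% ± 0.0038 in Ortho-E. In sorted bulk samples, fewer cells that hold a transcript and less of it per cell cannot be told apart.

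The sorted cells carried all 13 erythroid markers in every group, and these summed to between 64255 and 74622 CPM (counts per 1000000 counts, after TMM scaling over the 16 libraries) in *Ypel4*+/+ Poly-E and between 264196 and 331375 CPM in Ortho-E. Markers of other blood cells were at much lower levels, though under TMM scaling some of them moved with the stage. The TMM factors were 1.45 to 1.56 in *Ypel4*+/+ Poly-E and 0.606 to 0.666 in Ortho-E libraries, and a smaller factor gives a higher CPM. By library totals the rises of all marker sums in Ortho-E would thus be smaller or turn to falls. The marker sums were not computed on that scale. The 5 megakaryocyte and platelet markers summed to between 27.5 and 35.6 CPM in *Ypel4*+/+ Poly-E and between 97.1 and 113 CPM in Ortho-E, with *Gp1bb* at 0 in every library. *Pf4* was also at 0 in *Ypel4*+/+ Ortho-E, and *Pf4* and *Ppbp* in *Ypel4*-/- Ortho-E. Of the 5 markers, 4 were detected in each Poly-E group, 3 in *Ypel4*+/+ Ortho-E and 2 in *Ypel4*-/- Ortho-E. The higher sums in Ortho-E thus rest on fewer markers, and the list did not move as 1. The 8 macrophage markers summed to 1.94 to 4.44 CPM in *Ypel4*+/+ Poly-E and 6.33 to 13.5 CPM in Ortho-E, and the 5 B cell markers to 11.4 to 17.1 CPM and 18.9 to 24.6 CPM. The 8 granulocyte markers reached at most 17.96 CPM and the 3 T cell markers at most 0.45 CPM, with *Ly6g* and *Cd3e* at 0 in every library. The *Ypel4*-/- sums for Poly-E and Ortho-E were 26.7 to 31.6 and 90.0 to 105 CPM for megakaryocyte and platelet markers, 3.20 to 4.89 and 7.22 to 11.1 CPM for macrophage markers, and 15.4 to 25.1 and 31.8 to 39.1 CPM for B cell markers. The part of these cells in the values of the members was not tested.

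**Figure D1:**
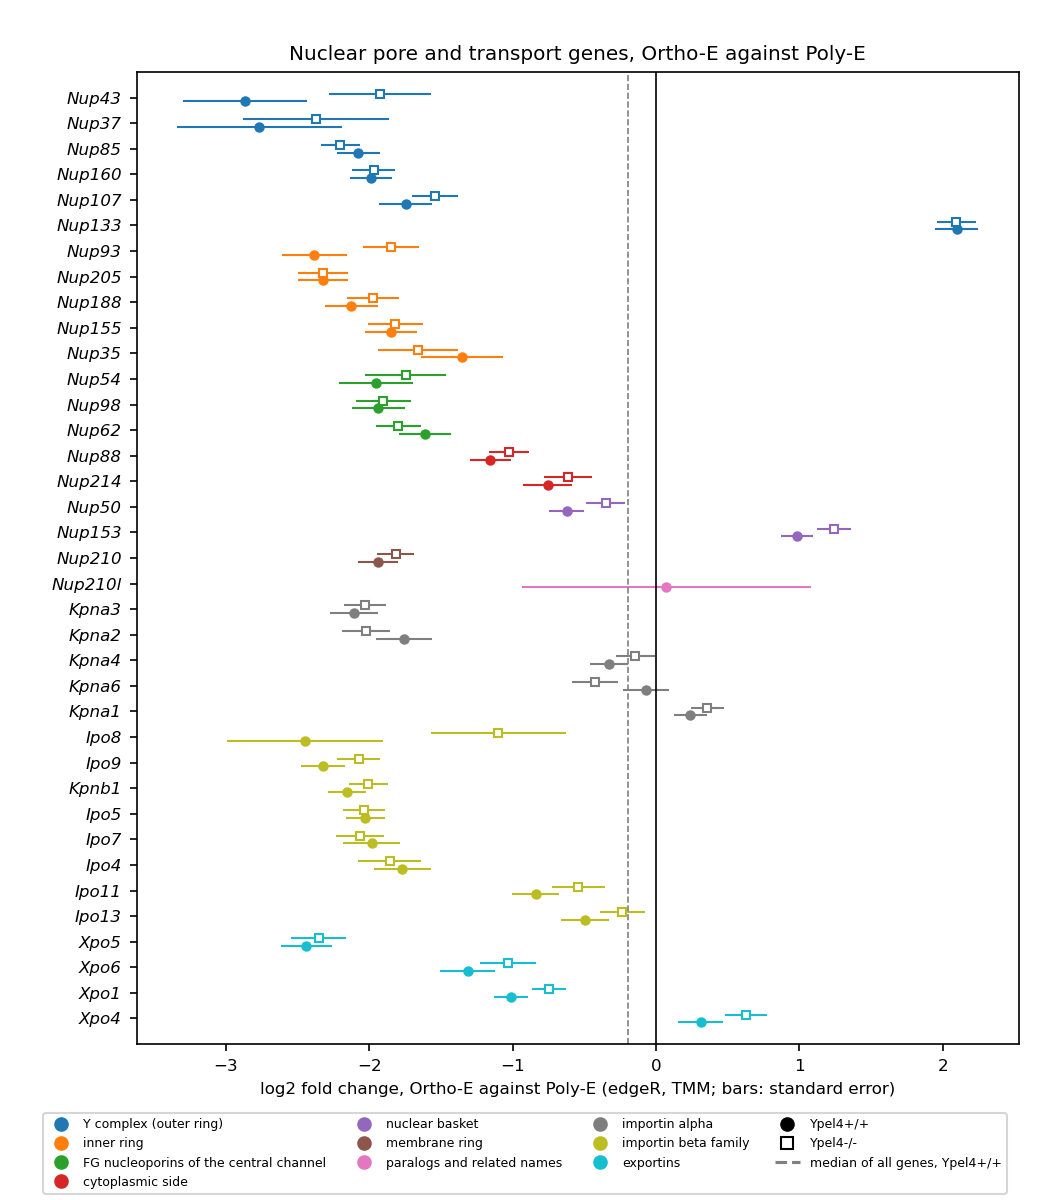
Log2 fold change of each member from Poly-E to Ortho-E, grouped by its role in the pore or in transport, in *Ypel4*+/+ and in *Ypel4*-/- mice (TMM scaling, 4 libraries a group, filled circles for *Ypel4*+/+ and open squares for *Ypel4*-/-, bars for standard errors from edgeR, colours for roles, and a dashed line at the median of all genes tested in *Ypel4*+/+). *Nup133* and *Nup153* lie to the right of 0 in both genotypes while 29 members lie to the left and are called in both, but *Nup153*, *Kpna1*, *Xpo4* and, in *Ypel4*+/+, *Nup210l* move to the left of 0 when scaled by library totals.

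Within the Y complex, the unit of the outer ring, 1 of the 6 members rose and the other 5 fell in both genotypes. The Y complex genes *Seh1l*, *Sec13* and *Ahctf1* lie outside the rule and are not counted here. Of all tested genes, 26.4% rose and 32.1% fell in *Ypel4*+/+ mice, and 29.5% and 31.5% in *Ypel4*-/- mice. *Nup133* encodes the subunit at the end of the stem of the Y and lies on the − strand of chromosome 8 from 123897123 to 123949265 (GRCm38). It was at 79.2, 58.4, 58.7 and 57.4 CPM in the 4 *Ypel4*+/+ Poly-E libraries and at 348, 264, 213 and 236 CPM in the Ortho-E libraries. In the *Ypel4*-/- libraries it was at 52.5, 64.6, 70.6 and 55.8 CPM in Poly-E and at 197, 223, 281 and 222 CPM in Ortho-E. Every Ortho-E library thus lay above every Poly-E library of both genotypes. The log2 fold change was 2.10 ± 0.15 in *Ypel4*+/+ (4.28-fold, adjusted p = 7.43e-12, edgeR) and 2.10 ± 0.13 in *Ypel4*-/- mice (4.28-fold, adjusted p = 2.46e-15). By library totals the rise was 1.76-fold in *Ypel4*+/+ (log2 0.81, adjusted p = 1.14e-05) and 1.596-fold in *Ypel4*-/- mice (log2 0.67, adjusted p = 1.21e-05). Between libraries of the same number, the log2 ratio of CPM lay between 1.85 and 2.17 in *Ypel4*+/+ and between 1.78 and 1.99 in *Ypel4*-/- mice.

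*Nup43*, whose product is a small subunit on an arm of the Y, had the largest fall of any member called in *Ypel4*+/+ mice. It had 38, 32, 89 and 63 counts in the *Ypel4*+/+ Poly-E libraries and 0, 3, 3 and 3 counts in the Ortho-E libraries, which is a log2 fold change of −2.86 ± 0.43 (adjusted p = 2.11e-06, edgeR). The *Ypel4*-/- libraries held 57, 29, 40 and 122 counts for Poly-E and 3, 5, 8 and 4 for Ortho-E (log2 −1.93 ± 0.35, adjusted p = 1.67e-05). All Ortho-E libraries were below all Poly-E libraries in CPM. *Nup37*, another small subunit of the Y, had 16, 15, 44 and 43 counts in the *Ypel4*+/+ Poly-E libraries and 0, 1, 0 and 4 in the Ortho-E libraries. Its log2 fold change was −2.77 ± 0.58 (adjusted p = 0.000166, edgeR) and −4.25 without Ortho-E replicate 4, the library that holds 4 of the 5 Ortho-E counts. Without *Ypel4*, the Poly-E libraries had 24, 17, 16 and 60 counts of *Nup37* and the Ortho-E libraries 0, 2, 1 and 4 (log2 −2.37 ± 0.51, adjusted p = 0.000133). With counts this low, the sizes of the falls of *Nup37* and *Nup43* are known less well than their direction. *Nup85*, *Nup160* and *Nup107*, the larger scaffold subunits, fell by 2.08 ± 0.15, 1.99 ± 0.15 and 1.74 ± 0.19 on the log2 scale in *Ypel4*+/+ mice and by 2.20 ± 0.14, 1.97 ± 0.15 and 1.54 ± 0.16 in *Ypel4*-/- mice.

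The makeup of the transcripts of the 6 Y complex members does not depend on scaling, since it compares these genes within a library. It leaves out *Seh1l*, *Sec13* and *Ahctf1*, so the shares are not those of the whole complex. As a share of the summed counts per exon length of the 6 members, *Nup133* made up 13.8% ± 2.48 (SD, n = 4, range 12.3% to 17.5%) in *Ypel4*+/+ Poly-E and 73.1% ± 7.69 (68.1% to 84.4%) in Ortho-E. *Nup85* went the other way, from 48.2% ± 1.498 to 14.4% ± 4.32, and *Nup107* from 17.8% ± 1.26 to 6.95% ± 2.74. Without *Ypel4*, *Nup133* held 13.5% ± 1.89 in Poly-E and 72.4% ± 3.83 in Ortho-E. The shares of the other members are tied to that of *Nup133*, since the 6 sum to the whole of this set. Of the genes left out, *Seh1l* went from 98.1 ± 2.99 to 22.8 ± 4.77 CPM in *Ypel4*+/+ mice (SD, n = 4, TMM scaling). *Sec13* went from 27.3 ± 3.14 to 24.8 ± 3.43 CPM and *Ahctf1* from 194 ± 13.7 to 203 ± 12.5 CPM, both within their spread. Without *Ypel4* the means went from 94.6 to 20.2, from 26.7 to 21.1 and from 182 to 193 CPM. With these genes included, the share of *Nup133* would be lower in every group.

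**Figure D2:**
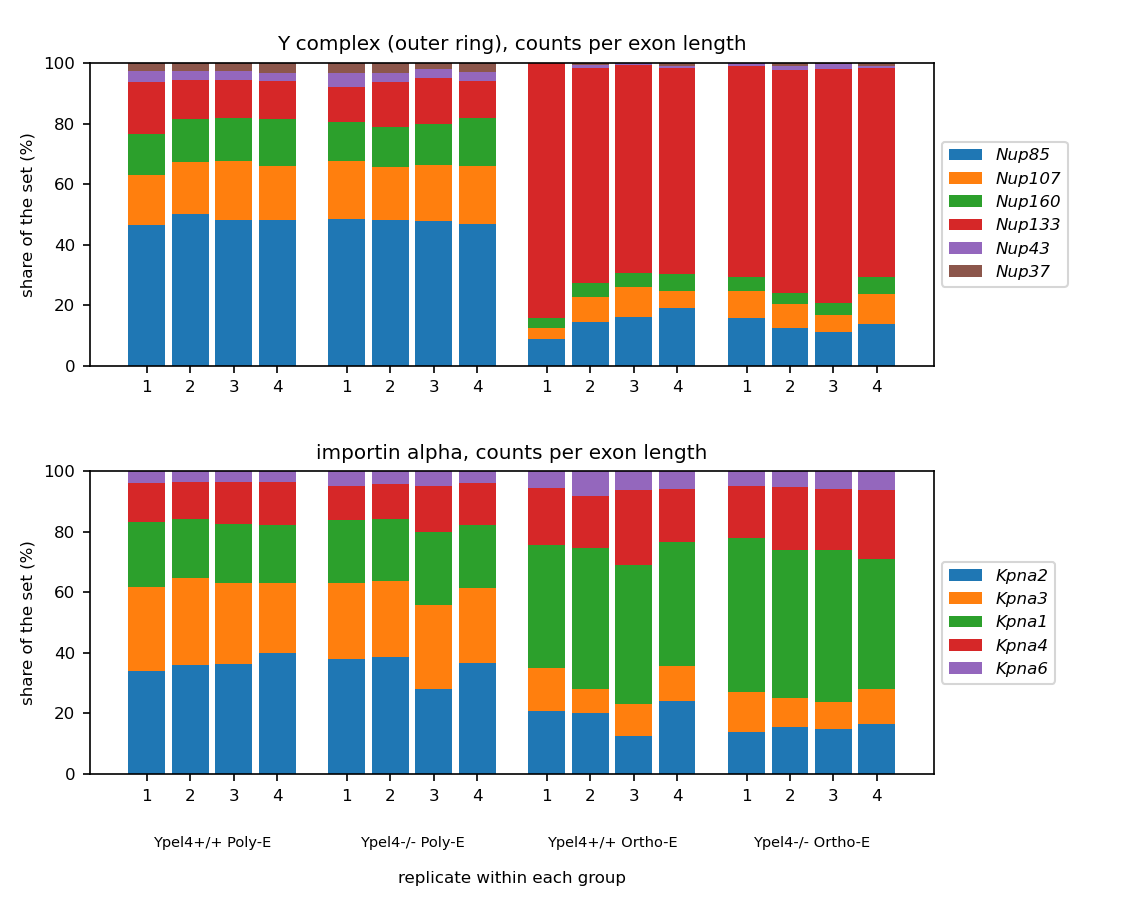
Share of each gene in the summed counts per exon length of the Y complex members and of the importin alpha members, for each of the 16 libraries (percent, stacked bars from 0 to the whole set). *Nup133* takes 12.3% to 17.5% of the Y complex members in *Ypel4*+/+ Poly-E and 68.1% to 84.4% in Ortho-E, and *Kpna1* takes 19.2% to 21.3% and 40.8% to 46.5% of the importin alpha set. The Y complex subunit genes *Seh1l*, *Sec13* and *Ahctf1*, outside the rule, are not included.

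The 2 members of the nuclear basket moved apart in both genotypes. *Nup153* encodes an FG nucleoporin that anchors the basket to the pore and lies on the − strand of chromosome 13 from 46679905 to 46727940 (GRCm38). The *Ypel4*+/+ libraries were at 237, 220, 211 and 211 CPM in Poly-E and at 440, 437, 382 and 441 CPM in Ortho-E. Those of *Ypel4*-/- mice were at 195, 200, 202 and 214 CPM in Poly-E and at 432, 397, 445 and 431 CPM in Ortho-E. The 2 populations did not overlap in either genotype. Its log2 fold change was 0.98 ± 0.11 in *Ypel4*+/+ (1.98-fold, adjusted p = 2.79e-08, edgeR) and 1.24 ± 0.12 in *Ypel4*-/- mice (2.37-fold, adjusted p = 2.85e-11), but by library totals the direction turned, to −0.30 (adjusted p = 0.0164) and −0.17 (adjusted p = 0.139). *Nup50*, a mobile basket protein that binds importin alpha, fell by 0.62 ± 0.13 on the log2 scale in *Ypel4*+/+ (adjusted p = 0.000109) and by 0.35 ± 0.14 in *Ypel4*-/- mice (adjusted p = 0.0277, edgeR). The latter call was lost without Ortho-E replicate 1, Poly-E replicate 3 or Poly-E replicate 4 (adjusted p from 0.0711 to 0.105). Of the summed counts per exon length of the 2 genes, *Nup153* held 46.6% ± 3.40 in *Ypel4*+/+ Poly-E and 72.8% ± 3.08 in Ortho-E (SD, n = 4), and 45.5% ± 1.67 and 71.7% ± 5.201 in *Ypel4*-/- mice.

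Promoter windows of 300 bases, from 250 before to 50 after a start, were found in the RefSeq table (GRCm38.p6) for 29 of the 37 members, with 34 windows in all. The sequences before the start are printed for 4 members, because *Nup133* and *Nup107* encode subunits of one complex, as *Nup153* and *Nup50* do of the basket, and within each set the transcripts moved in opposite directions under TMM scaling (by library totals *Nup153* fell too). All are written 5′ to 3′ on the strand of the gene, and capitals mark matches, on either strand, to the motifs named in the next paragraph. The start of *Nup153* lies inside its gene as counted, so 91 bases next to the start were left out.
Nup133 promoter, chr8:123949266-123949515 (−): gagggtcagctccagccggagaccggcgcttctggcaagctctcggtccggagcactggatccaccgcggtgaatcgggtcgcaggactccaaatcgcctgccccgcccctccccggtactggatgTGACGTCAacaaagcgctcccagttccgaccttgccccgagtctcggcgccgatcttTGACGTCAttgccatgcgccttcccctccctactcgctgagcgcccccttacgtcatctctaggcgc
Nup107 promoter, chr10:117792706-117792955 (−): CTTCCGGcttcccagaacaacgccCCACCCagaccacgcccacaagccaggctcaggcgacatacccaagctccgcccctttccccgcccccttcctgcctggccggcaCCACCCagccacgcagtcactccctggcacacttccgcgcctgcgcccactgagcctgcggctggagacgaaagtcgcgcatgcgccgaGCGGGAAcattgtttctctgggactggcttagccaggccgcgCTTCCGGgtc
Nup153 promoter, chr13:46727941-46728099 (−): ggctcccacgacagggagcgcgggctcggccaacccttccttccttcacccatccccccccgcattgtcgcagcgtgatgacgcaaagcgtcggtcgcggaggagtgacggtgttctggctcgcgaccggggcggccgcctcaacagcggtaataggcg
Nup50 promoter, chr15:84923178-84923427 (+): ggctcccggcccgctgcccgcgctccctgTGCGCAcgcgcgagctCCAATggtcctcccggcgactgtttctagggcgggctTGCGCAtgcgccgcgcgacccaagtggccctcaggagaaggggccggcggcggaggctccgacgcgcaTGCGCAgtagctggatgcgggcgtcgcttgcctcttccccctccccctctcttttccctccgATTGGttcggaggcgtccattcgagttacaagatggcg

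The member promoters were rich in G and C, with a median of 65.0% against 60.7% in promoters of genes that reached 10 counts. Of the 8 motifs searched on both strands, TGACGTC, the core of the cyclic AMP response element (CRE), was added after the letters of the *Nup133* promoter had been seen. It stood in the *Nup133* window at 2 places, 124 and 67 bases before the start, each a palindrome that matches on both strands, and in the window of *Nup214*, so in 2 of 29 members with a window, against 6.45% of genes that reached 10 counts and 3.21% of all promoters. *Nup107* held the ETS motif CCGGAAG, in 5 of 29 members against 21.5% of such genes, the motif CCACCC of KLF1, the erythroid Krüppel-like factor, in 8 members against 39.8%, and the E2F motif TTCCCGC, in 3 members against 10.1%. The window of *Nup133* also held the E2F motif, outside the printed stretch. *Nup50* held 3 matches to the NRF1 motif TGCGCA, found in 6 members against 16.7%, and 2 to the CCAAT box, found in 16 members against 43.1%. The printed stretch of *Nup153* held no match to any motif searched. The GATA motif GATAA stood in the window of 1 member, *Ipo5*, against 19.7% of genes that reached 10 counts and 25.4% of all promoters, and the E-box CACGTG in 5 members against 11.7%. A match is a description of these letters and does not show that a factor binds there.

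The other scaffold, channel and filament genes among the members moved one way. This did not hold for the 13 pore subunits whose names fall outside the rule. In *Ypel4*+/+ mice 7 of them fell and 4 rose, against 32.1% and 26.4% of all genes. By library totals 9 fell and 1 rose, against 60.3% and 10.4%. *Ranbp2*, among these 13, went from 272 ± 32.2 to 549 ± 43.0 CPM (SD, n = 4, TMM scaling). All 5 inner ring members fell in both genotypes, against 32.1% of all genes in *Ypel4*+/+ and 31.5% in *Ypel4*-/- mice. In *Ypel4*+/+ mice their log2 fold changes ran from −2.38 ± 0.23 for *Nup93*, which links the ring to the channel, to −1.35 ± 0.29 for *Nup35*. The large scaffold genes *Nup205* and *Nup188* fell by 2.32 ± 0.17 and 2.12 ± 0.19 on the log2 scale, and *Nup155*, which joins the ring to the membrane, by 1.85 ± 0.18. Without *Ypel4* the inner ring ran from −2.32 ± 0.17 for *Nup205* to −1.66 ± 0.28 for *Nup35*. The 3 FG nucleoporins of the central channel, *Nup54*, *Nup98* and *Nup62*, fell by 1.95, 1.94 and 1.61 in *Ypel4*+/+ and by 1.75, 1.90 and 1.80 in *Ypel4*-/- mice on the same scale. *Nup210*, a transmembrane nucleoporin, fell by 1.94 ± 0.14 and 1.81 ± 0.13. The 2 genes of the cytoplasmic side, *Nup88* and *Nup214*, which form a complex in the filaments, fell less, by 1.16 ± 0.14 and 0.76 ± 0.17 in *Ypel4*+/+ and by 1.02 ± 0.14 and 0.61 ± 0.17 in *Ypel4*-/- mice. *Nup210l*, a paralog of *Nup210*, had 4, 1, 3 and 1 counts in the *Ypel4*+/+ Poly-E libraries and 0, 0, 2 and 1 in the Ortho-E libraries, too few for a change to be detectable at this depth (log2 0.07 ± 1.01).

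**Figure D3:**
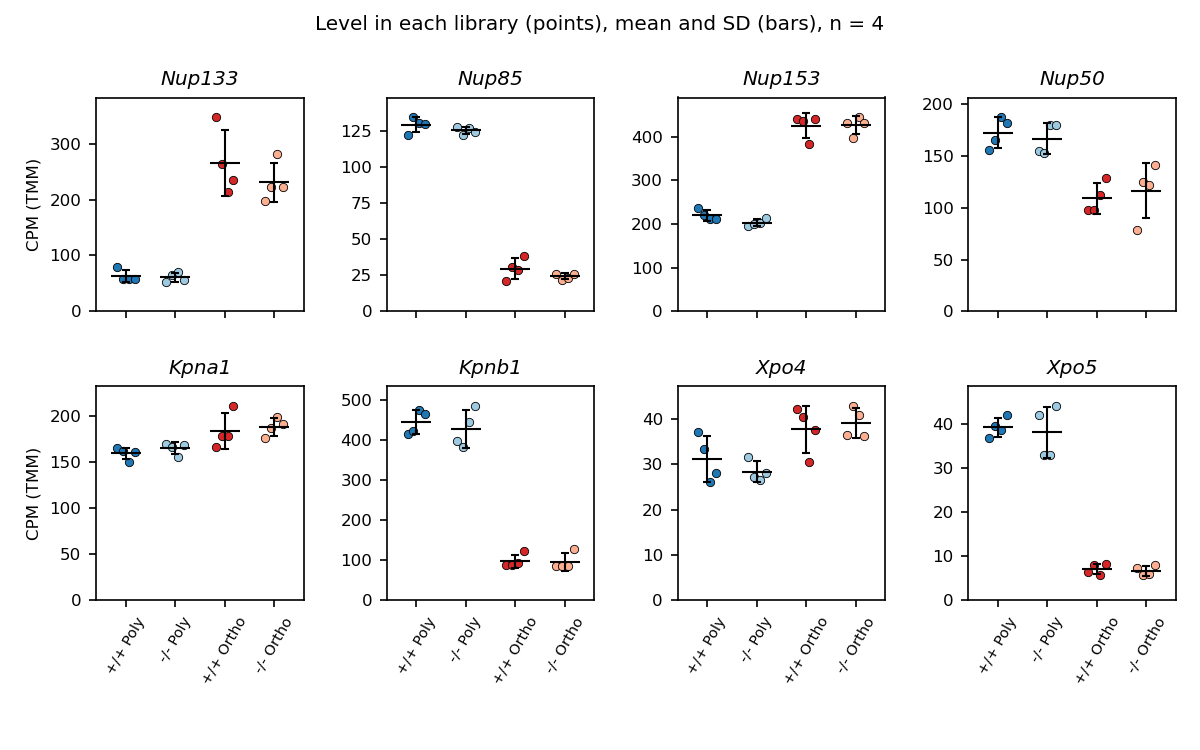
Level in CPM (linear axis from 0, TMM scaling) of 8 members in each of the 16 libraries, by group, with each point a library, the wide bar the mean of 4 and the error bar their SD. *Nup133* lies between 57.4 and 79.2 CPM in *Ypel4*+/+ Poly-E and between 213 and 348 CPM in Ortho-E, *Nup85* and *Kpnb1* go the other way, and the rises of *Nup153*, *Kpna1* and *Xpo4* turn to falls when scaled by library totals.

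Among the importins, all 8 members of the beta family fell in *Ypel4*+/+ mice, against 32.1% of all tested genes. In *Ypel4*-/- mice 7 of 8 fell, against 31.5%. *Kpnb1*, importin beta itself and the member with the highest level per exon length in *Ypel4*+/+ Poly-E, was at 413, 423, 474 and 465 CPM there and at 86.2, 86.9, 92.9 and 121 CPM in Ortho-E. The populations did not overlap, and the log2 fold change was −2.16 ± 0.13 (4.46-fold lower, adjusted p = 1.19e-13, edgeR). The *Ypel4*-/- libraries were at 397, 382, 443 and 485 CPM in Poly-E and at 84.6, 83.8, 83.7 and 127 CPM in Ortho-E, 4.02-fold lower (log2 −2.01 ± 0.14, adjusted p = 1.13e-14). *Ipo8*, an importin beta family receptor, was the beta family member with the lowest level per exon length, with 16, 14, 31 and 32 counts in the *Ypel4*+/+ Poly-E libraries and 1, 1, 2 and 1 in the Ortho-E libraries (log2 −2.45 ± 0.55, adjusted p = 0.000357). Without *Ypel4* it had 12, 9, 24 and 34 counts in the Poly-E libraries and 1, 2, 3 and 6 in the Ortho-E libraries (log2 −1.10 ± 0.47, adjusted p = 0.0440, edgeR). That call ended with the replicate number as a block (adjusted p = 0.0512) and without any 1 of the 4 Ortho-E libraries or Poly-E replicate 3 (adjusted p from 0.0528 to 0.152).

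*Ipo9*, *Ipo5*, *Ipo7* and *Ipo4*, which import histones, ribosomal proteins and other cargo, fell by 2.32, 2.03, 1.98 and 1.77 on the log2 scale in *Ypel4*+/+ mice and by 2.07, 2.04, 2.07 and 1.86 in *Ypel4*-/- mice. *Ipo11* fell by 0.84 ± 0.17 and by 0.54 ± 0.18. The smallest change of the family was that of *Ipo13*, which works in both import and export, with −0.49 ± 0.17 in *Ypel4*+/+ (adjusted p = 0.0133, from 0.0610 to 0.125 without Poly-E replicate 2, 3 or 4) and −0.23 ± 0.16 in *Ypel4*-/- mice (adjusted p = 0.202, edgeR). Without Poly-E replicate 1 the *Ypel4*-/- call of *Ipo11* was lost as well (adjusted p = 0.0599).

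The 5 importin alpha genes, whose products share the task of binding the localization signal, split. *Kpna2* and *Kpna3* fell by 1.76 ± 0.20 and 2.11 ± 0.16 on the log2 scale in *Ypel4*+/+ mice and by 2.02 ± 0.17 and 2.03 ± 0.14 in *Ypel4*-/- mice. *Kpna1* had a log2 fold change of 0.24 ± 0.12 in *Ypel4*+/+ (adjusted p = 0.0818, and 0.0149 with a replicate block) and rose by 0.36 ± 0.12 in *Ypel4*-/- mice (adjusted p = 0.00791, edgeR, and 0.0776 without Ortho-E replicate 3). By library totals *Kpna1* turned lower, at −1.04 and −1.06. *Kpna4* was at −0.33 ± 0.13 in *Ypel4*+/+ (adjusted p = 0.0353, lost without any 1 of the 4 Poly-E libraries or Ortho-E replicate 1 or 2, adjusted p from 0.0903 to 0.348) and at −0.14 ± 0.14 in *Ypel4*-/- mice (adjusted p = 0.377). *Kpna6* was at −0.07 ± 0.16 in *Ypel4*+/+ (adjusted p = 0.743) and at −0.43 ± 0.16 in *Ypel4*-/- mice (adjusted p = 0.0227, and 0.0551 to 0.0731 without Poly-E replicate 1 or Ortho-E replicate 1 or 2). Within the importin alpha set, which needs no scaling, *Kpna1* held 19.9% ± 0.92 of the counts per exon length in *Ypel4*+/+ Poly-E and 43.6% ± 3.01 in Ortho-E (SD, n = 4), and *Kpna2*, the highest of the 5 in Poly-E, went from 36.7% ± 2.57 to 19.4% ± 4.93. The share of *Kpna1* in *Ypel4*-/- mice went from 21.6% ± 1.62 to 48.3% ± 3.49.

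Of the exportins, *Xpo1*, the general export receptor known as CRM1, was at 360, 374, 323 and 338 CPM in the *Ypel4*+/+ Poly-E libraries and at 174, 177, 149 and 177 CPM in Ortho-E, without overlap. Its log2 fold change was −1.01 ± 0.12 (2.02-fold lower, adjusted p = 2.57e-08, edgeR), and in *Ypel4*-/- mice −0.74 ± 0.12 (adjusted p = 1.21e-06), from 335, 317, 291 and 327 CPM to 166, 167, 167 and 173 CPM. *Xpo5*, which exports microRNA precursors, was at 36.8, 39.5, 38.6 and 42.0 CPM in the *Ypel4*+/+ Poly-E libraries and at 6.34, 8.0, 5.66 and 8.16 CPM in Ortho-E, 5.42-fold lower (log2 −2.44 ± 0.18, adjusted p = 4.98e-12). The *Ypel4*-/- libraries were at 42.0, 33.0, 33.0 and 44.1 CPM in Poly-E and at 7.20, 5.56, 5.91 and 7.91 CPM in Ortho-E (log2 −2.35 ± 0.19, adjusted p = 1.22e-12). *Xpo5* thus fell in both genotypes with no overlap between the populations. *Xpo6*, the exporter of actin, fell by 1.31 ± 0.19 and 1.03 ± 0.20. *Xpo4* was at 0.31 ± 0.16 in *Ypel4*+/+ (adjusted p = 0.0880, and 0.0203 with the block) and rose by 0.63 ± 0.14 in *Ypel4*-/- mice (adjusted p = 0.000338, edgeR), and by library totals it turned lower, at −0.97 and −0.79. Of the 4 exportins' counts per exon length, *Xpo1* held 73.8% ± 0.963 in *Ypel4*+/+ Poly-E and 74.6% ± 1.27 in Ortho-E, while *Xpo4* went from 6.5% ± 0.807 to 16.4% ± 1.09 and *Xpo5* from 16.1% ± 1.32 to 5.99% ± 0.684.

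*Xpo7*, an exportin of the same family that is left out by the rule, moved the other way and by more than any member. Its counts were 0.546 ± 0.312 times the summed counts of all 37 members in *Ypel4*+/+ Poly-E (SD, n = 4, range 0.299 to 1.00) and 17.0 ± 1.81 times in Ortho-E (14.5 to 18.7). The *Ypel4*-/- ratios were 0.434 ± 0.149 for Poly-E and 16.9 ± 1.52 for Ortho-E. The log2 fold change of *Xpo7* was 4.20 ± 0.41 in *Ypel4*+/+ (adjusted p = 9.07e-05, edgeR, and 2.93 by library totals) and 4.67 ± 0.19 in *Ypel4*-/- mice (adjusted p = 2.49e-12).

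The order of the members by level changed between the populations. Per kilobase of exon, the 3 highest in *Ypel4*+/+ Poly-E were *Kpnb1* at 67.3 ± 4.57 CPM per kb (SD, n = 4), *Xpo1* at 48.6 ± 3.17 and *Nup210* at 47.4 ± 4.00, the last 2 of which lay within 1 SD of each other. *Nup85* at 38.2 ± 1.5, *Nup50* at 36.5 ± 3.08, *Kpna2* at 34.6 ± 3.72 and *Nup153* at 31.8 ± 1.75 CPM per kb came next, and *Nup133* was the 16th at 10.9 ± 1.81. In Ortho-E *Nup153* was the highest at 61.5 ± 4.11 CPM per kb and *Nup133* the next at 45.7 ± 10.2, both above *Xpo1* at 23.5 ± 1.85, *Nup50* at 23.0 ± 3.07 and *Kpna1* at 21.6 ± 2.27, which did not differ beyond their spread. *Kpnb1* was the 6th at 14.7 ± 2.50. Among *Ypel4*-/- Ortho-E libraries these genes also led, *Nup153* at 61.7 ± 2.96 and *Nup133* at 39.7 ± 6.15 CPM per kb. At the low end *Ipo8*, at 0.245 ± 0.0353 CPM per kb, and *Nup210l*, at 0.0523 ± 0.0497, were the lowest in *Ypel4*+/+ Poly-E. As a share of all members' counts per exon length, *Nup153* and *Nup133* went from 5.65% and 1.94% in *Ypel4*+/+ Poly-E to 20.7% and 15.4% in Ortho-E, and *Kpnb1* from 11.9% to 4.94%.

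**Figure D4:**
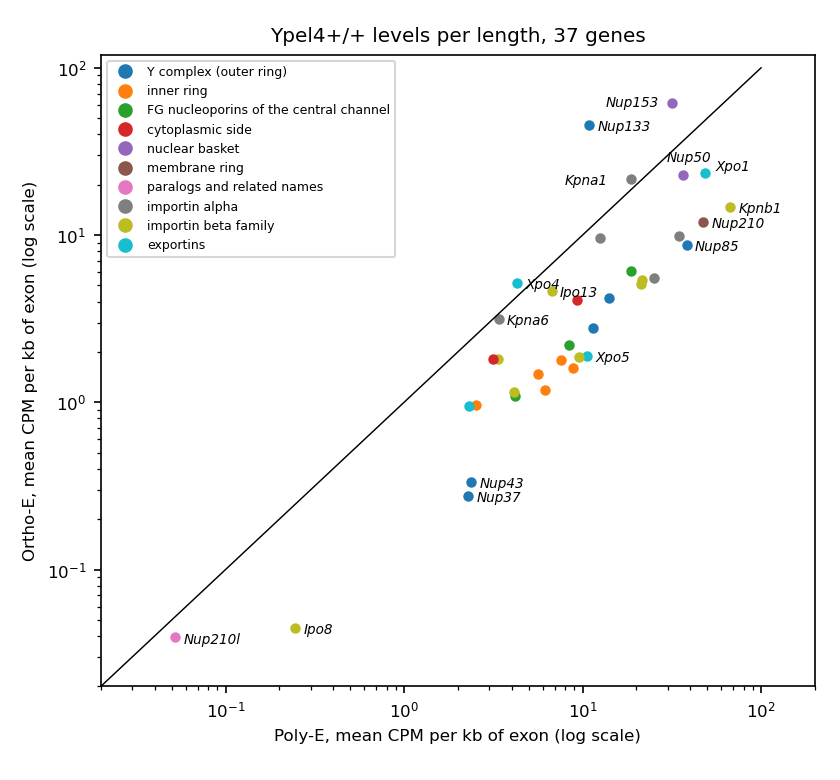
Mean level of each member per kilobase of exon in *Ypel4*+/+ Poly-E (horizontal) against Ortho-E (vertical), in CPM per kb on log axes, with each point the mean of 4 libraries, coloured by role, and a diagonal of equal level (TMM scaling). Most points lie below the diagonal, and *Nup133* (10.9 against 45.7) and *Nup153* (31.8 against 61.5) lie above it, although *Nup153* does not when scaled by library totals.

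Of the 37 members, 33 did not overlap between the populations in *Ypel4*+/+ mice, against 53.2% of all tested genes, the other 4 being *Xpo4*, *Kpna6*, *Ipo13* and *Nup210l*. Without *Ypel4*, 35 of 36 did not overlap, against 55.5%, the other being *Kpna4*. Of the 36 members tested in both genotypes, 31 were called the same way, 29 lower and 2 higher, and none was called opposite ways. *Kpna4* and *Ipo13* were called in *Ypel4*+/+ mice only, and *Xpo4*, *Kpna1* and *Kpna6* in *Ypel4*-/- mice only, differences that the interaction did not call. Across these 36 genes, which are not independent replicates, the log2 fold changes of the genotypes had a Pearson r of 0.958 and a median absolute difference of 0.18, and the 2 comparisons share no library. Exons of 9 members overlap those of other genes (*Ipo4*, *Ipo11*, *Kpnb1*, *Nup35*, *Nup62*, *Nup88*, *Nup188*, *Nup214* and *Xpo4*), and since reads on several genes were not counted and the strand was ignored, their levels may be too low.

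Loss of *Ypel4* was compared next, within each population. No member passed the test in Poly-E, where 37 were tested and 0.00807% of the 12395 genes, *Ypel4* alone, were called, nor in Ortho-E, where 36 were tested and 0.0285% of 10521 genes were called (edgeR's quasi-likelihood test, and DESeq2 called no member either). At an unadjusted p under 0.05, 0 of 37 members stood in Poly-E, against 2.19% of all genes, and 1 of 36 in Ortho-E, against 3.68%. In Poly-E the members' log2 fold changes ran from −0.41 for *Nup210l* to 0.28 for *Nup54*, with a median standard error of 0.12 and a largest of 0.81. In Ortho-E they ran from −0.47 for *Kpna2* to 0.97 for *Nup43*, with a median standard error of 0.20 and a largest of 0.97. The extremes of *Nup210l* and *Nup43* rest on few counts and are poorly known. The members with the lowest p are given for each population.

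In Poly-E the lowest was that of *Nup54*, at 13.1, 15.9, 12.97 and 13.5 CPM in *Ypel4*+/+ and 20.9, 18.6, 15.04 and 13.2 CPM in *Ypel4*-/- libraries. The groups overlapped, and the log2 fold change was 0.28 ± 0.16 (p = 0.100 before and 1.00 after adjustment in edgeR, exact two-sided permutation p = 0.200, and 0.25 within pairs of the same replicate number). *Kpna6* was at 24.1, 23.0, 20.8 and 23.1 CPM in *Ypel4*+/+ and at 29.7, 26.1, 24.3 and 24.4 CPM in *Ypel4*-/- Poly-E libraries. It was the only member whose genotypes did not overlap in Poly-E, where 2.09% of all genes did not (log2 0.20 ± 0.12, edgeR p = 0.115 before and 1.00 after adjustment, exact permutation p = 0.0286 with the libraries unpaired). Within pairs of the same number, *Kpna6* was higher in *Ypel4*-/- libraries in 4 of 4 pairs, and the exact permutation p was 0.125, the smallest that 4 pairs allow.

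In Ortho-E *Kpna2* was at 28.7, 26.3, 16.3 and 41.7 CPM in *Ypel4*+/+ and at 16.2, 20.03, 19.7 and 24.5 CPM in *Ypel4*-/- libraries. Its groups overlapped, and the log2 fold change of −0.47 ± 0.20 had p = 0.0257 before and 0.996 after adjustment (edgeR, exact permutation p = 0.229). *Nup85* was at 20.7, 30.9, 29.0 and 38.0 CPM in *Ypel4*+/+ and at 26.1, 21.9, 23.3 and 25.9 CPM in *Ypel4*-/- Ortho-E libraries, again with overlap (log2 −0.28 ± 0.17, edgeR p = 0.111 before and 0.996 after adjustment, exact permutation p = 0.257). None of the 36 members was without overlap in Ortho-E, where 2.35% of all genes were. *Nup133* and *Nup153*, which rose with the stage, had log2 fold changes of −0.06 ± 0.13 and −0.11 ± 0.10 with genotype in Poly-E and of −0.18 ± 0.15 and 0.03 ± 0.10 in Ortho-E.

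**Figure D5:**
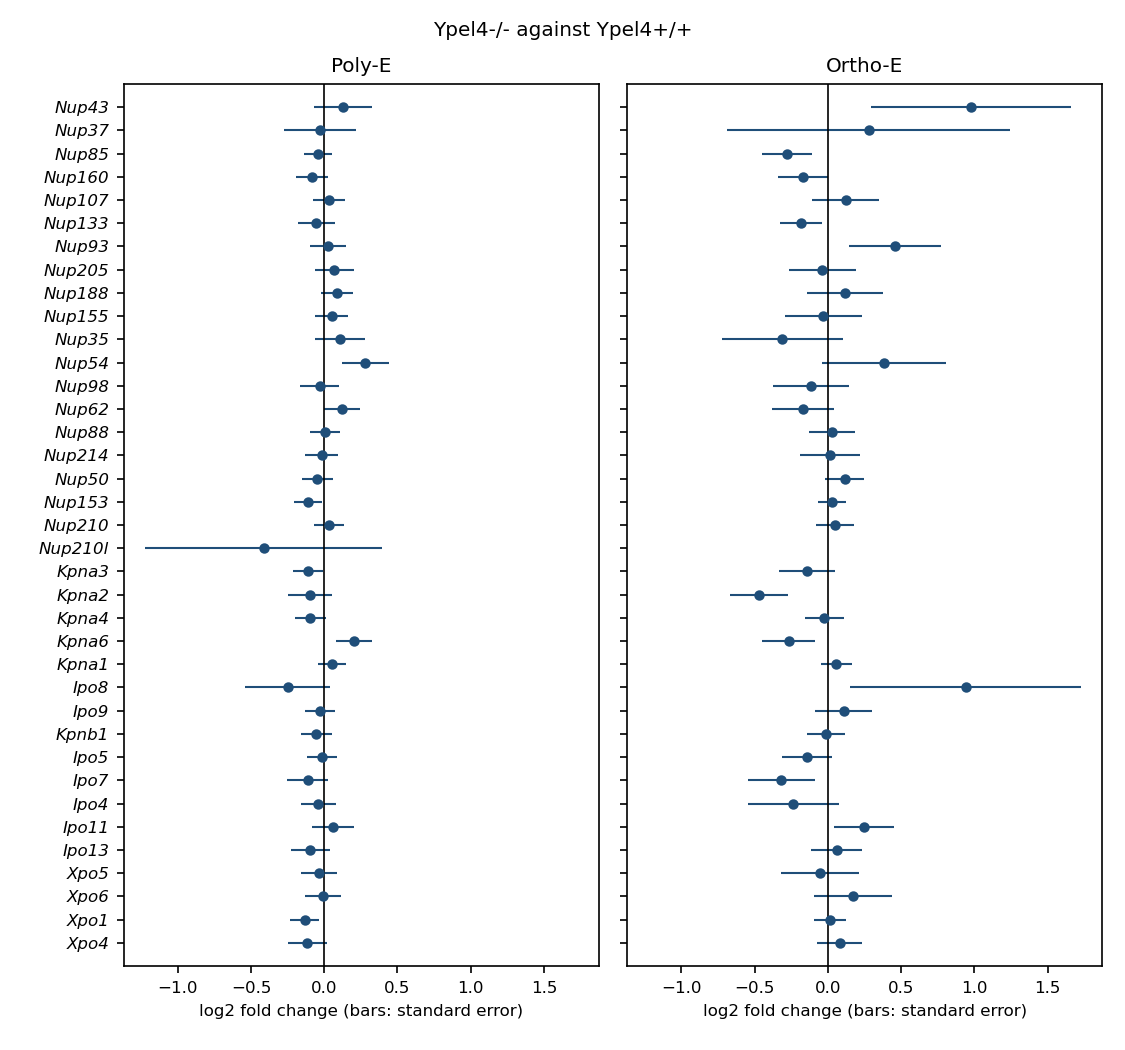
Log2 fold change of each member between *Ypel4*-/- and *Ypel4*+/+ mice for Poly-E and for Ortho-E cells (4 libraries a group, bars are standard errors from edgeR). The points scatter on both sides of 0, from −0.41 to 0.28 in Poly-E and from −0.47 to 0.97 in Ortho-E, and none has an adjusted p of at most 0.05. The values −0.41 and 0.97 are those of *Nup210l* and *Nup43*, which had few counts.

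Whether the change from Poly-E to Ortho-E differed with the genotype was tested as an interaction over all 16 libraries. Of 37 members 0 were called, and 0.0% of 13318 genes, with 364 genes, 2.73%, at an unadjusted p under 0.05, and DESeq2 called 1 gene, not a member. Among the members 1 had an unadjusted p under 0.05. This was *Kpna6*, with an interaction of −0.48 ± 0.23 on the log2 scale (unadjusted 0.0441, adjusted p = 1.00, edgeR). It was at 17.7, 24.6, 19.3 and 23.1 CPM in *Ypel4*+/+ and at 13.05, 15.9, 18.05 and 21.0 CPM in *Ypel4*-/- Ortho-E libraries. *Ipo8*, with the next lowest p, had an interaction of 1.25 ± 0.78 (unadjusted 0.118, adjusted p = 1.00, edgeR) on few counts. The interaction of *Nup133* was −0.14 ± 0.20 and that of *Nup153* 0.12 ± 0.16.

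The same pathway holds genes with other names, and a list of 35 was read in the same fits. In *Ypel4*+/+ mice 34 were tested, of which 21 fell and 6 rose, against 32.1% and 26.4% of all tested genes, with a median log2 fold change of −1.002, and by library totals 29 fell and 2 rose. All 35 were tested in *Ypel4*-/- mice, of which 21 fell and 7 rose, against 31.5% and 29.5% of all tested genes, with a median of −0.85. By library totals 29 of them fell and 2 rose there, against 60.9% and 11.2% of all tested genes. All 6 genes of the Ran cycle, which loads and unloads the receptors, fell in both genotypes. Of 13 pore subunits with other names, 7 fell and 4 rose in *Ypel4*+/+ mice, of 9 tested genes of mRNA export 4 fell and 1 rose, and of 6 other karyopherins 4 fell and 1 rose. Against 32.1% and 26.4% of all genes, the rises of the pore subunits and the falls of the mRNA export genes were near the background. By library totals, where 60.3% of all genes were lower and 10.4% higher, 9 of the 13 pore subunits fell and 1 rose, all 9 mRNA export genes fell, and 5 of the 6 karyopherins fell and 1 rose. The largest rises were those of *Nupl2*, a nucleoporin of the cytoplasmic side, from 2.66 ± 1.15 to 22.5 ± 8.57 CPM (log2 3.23 ± 0.33, adjusted p = 1.58e-07, edgeR), and of *Tnpo1*, the import receptor transportin, from 65.9 ± 13.2 to 339 ± 27.4 CPM (log2 2.40 ± 0.14, adjusted p = 4.57e-14). Both rises held by library totals, at 1.94 and 1.12. The largest falls were those of *Ranbp17*, a relative of *Xpo7*, from 4.69 ± 1.29 to 0.543 ± 0.393 CPM (log2 −2.92 ± 0.49, adjusted p = 8.80e-06), and of *Nxt1*, a cofactor of mRNA export, from 46.2 ± 7.80 to 7.79 ± 2.30 CPM (log2 −2.52 ± 0.20, adjusted p = 2.03e-11). None of these genes was called between the genotypes in either population.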

How the data were processed

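RNA of sorted erythroblasts was sequenced in 16 libraries, with an unstranded kit. The counts per gene deposited by the authors came from an nf-core/rnaseq run on GRCm38 and, per the file headers, from featureCounts 1.6.4, summed over exons, without strand and without reads on several genes or places. These counts were not normalized. The titles gave each library's group and replicate number, and no library was left out. The members, gene lists, rules and tests were chosen with earlier results of these data known.

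Genes whose counts summed to 10 or more in a fit were tested with edgeR 4.0.16 in R 4.3.3 (quasi-likelihood test, robust, TMM), with Benjamini-Hochberg adjustment over all genes and a threshold of 0.05. Comparisons used 8 libraries, and the interaction all 16. CPM values were scaled by TMM over all libraries, and levels between genes were divided by exon length. Exact permutation tests were run on log2(CPM + 0.5), unpaired and, for the genotypes in Poly-E, also within replicate pairs, an alternative chosen after seeing the data. Per-library values were given for the called members with the largest changes between populations in *Ypel4*+/+ mice (4 at most in each direction), the 2 with the lowest p in each genotype comparison, and the 2 highest and 2 lowest per length in *Ypel4*+/+ Poly-E. Motifs were searched as exact letters in RefSeq promoter windows.

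Alternatives were DESeq2 1.42.0 and its size factors in edgeR, library totals, globin genes left out, filterByExpr and no filter, the replicate number as a block, a fit on all libraries, a term for replicates 1 and 2 against 3 and 4, and each library left out in turn. In the deposited names a further number is shared by the Poly-E and Ortho-E library of a replicate and was read as the mouse. Same-numbered libraries deviated together over 5956 genes (correlations of 0.38 to 0.549 in *Ypel4*+/+ and 0.0862 to 0.451 in *Ypel4*-/- mice), so the populations were read as paired. The main fits nevertheless had no term for the replicate number. The pairing of populations entered only through the block, as an alternative. Between genotypes the same-number correlations ran from 0.196 to 0.57 in Poly-E and from −0.0866 to 0.263 in Ortho-E. In Poly-E some different numbers correlated as much, at 0.352 (*Ypel4*+/+ 1 with *Ypel4*-/- 2), 0.428 (2 with 1) and 0.540 (3 with 4). Others were negative, down to −0.509 (1 with 4). The numbers thus do not establish pairs between genotypes. The Poly-E tests within pairs are given only as an alternative, and Ortho-E was not paired.

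Tested on simulated data with 200 changed genes, edgeR recovered 64% of them between populations in *Ypel4*+/+ (15.8% of calls false, 11747 genes) and 54.5% in *Ypel4*-/- mice (15.5%, 11973 genes), 62.5% between genotypes in Poly-E (7.41%, 12395 genes) and 56.5% in Ortho-E (8.13%, 10521 genes), and 41% for the interaction (4.65%, 13318 genes). The false shares between populations lay above the threshold of 0.05. In the data, 3097 genes were called higher and 3774 lower between populations in *Ypel4*+/+, and 3538 and 3767 in *Ypel4*-/- mice. With so many more changed genes than 200, the simulated shares need not hold for the comparisons of populations.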

Additional observations from a re-analysis of the deposited data

Results flagged for a closer look

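A library that stood far from the other 3 of its group, by Dixon's test at the 95% level, was found for 15 of the 148 sets of 4 libraries tested (37 members in 4 groups), 10.1%, where chance gives about 1 in 20. *Nup133* was at 79.2 CPM in *Ypel4*+/+ Poly-E replicate 1 and at 57.4 to 58.7 CPM in the others, and *Nup153* at 382 CPM in *Ypel4*+/+ Ortho-E replicate 3 against 437 to 441. Both genes still did not overlap between the populations.

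Several flags fell on the same library. *Ypel4*-/- Ortho-E replicate 4 was high for *Kpnb1* (127 CPM against 83.7 to 84.6), *Ipo5* (26.6 against 17.99 to 19.0), *Ipo7* (18.3 against 10.5 to 11.2) and *Xpo1* (173 against 166 to 167). *Ypel4*-/- Poly-E replicate 3 was low for *Kpna2* (61.5 CPM against 101 to 105) and *Kpna3* (89.0 against 98.2 to 99.6) and high for *Ipo8* (3.31 against 1.75 to 1.83). *Ypel4*+/+ Ortho-E replicate 2 was high for *Nup188* (17.1 CPM against 8.63 to 9.99) and *Xpo6* (13.1 against 7.70 to 8.03), and replicate 3 low for *Xpo1* (149 against 174 to 177). In *Ypel4*+/+ Poly-E, replicate 2 was high for *Nup205* (70.8 CPM against 51.3 to 54.4) and low for *Ipo4* (19.0 against 22.8 to 23.4), and replicate 4 high for *Nup37* (3.74 against 2.87 to 2.91).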

How the results depend on the processing

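The number of members higher in Ortho-E was 2 in *Ypel4*+/+ mice and became 4 with DESeq2, with its size factors in edgeR, with filterByExpr, with the replicate number as a block (the pairing of populations) and with the term for replicates 1 and 2 against 3 and 4. It was 2 to 4 with each library left out, 4 without Poly-E replicate 1 or 2, and 1 with library totals. In *Ypel4*-/- mice it was 4, and 1 with library totals. *Kpna1* was not called there with all 16 libraries in the fit, with no filter or without Ortho-E replicate 3, each of which left 3. The counts of lower members, and the count of 0 in each genotype comparison and the interaction, changed by less than 1.5 times in each setting run.

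By library totals the log2 fold change turned in *Ypel4*+/+ for *Kpna1* (−1.04), *Xpo4* (−0.97), *Nup153* (−0.30) and *Nup210l* (−1.10), and in *Ypel4*-/- mice for *Kpna1* (−1.06), *Xpo4* (−0.79) and *Nup153* (−0.17). In *Ypel4*+/+ mice *Kpna6* turned with DESeq2 (0.0634), its size factors (0.0616) and filterByExpr (0.111), and ranged from −0.1194 to 0.0662 with each library left out. *Nup210l* was at −0.0035 with no filter and from −0.97 to 0.41 with each library left out. In *Ypel4*-/- mice *Kpna4* was at 0.0003 with filterByExpr. The causes were not tested.

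In *Ypel4*+/+ mice *Kpna4* and *Ipo13* were not called with DESeq2, its size factors or filterByExpr. In *Ypel4*-/- mice *Ipo8* was not called in these 3 settings, with no filter or with the replicate block, nor *Nup50* with DESeq2 or filterByExpr, nor *Ipo11* and *Kpna6* with filterByExpr, which left 26 lower members of 30. *Ipo13* was called there with all 16 libraries in the fit. By library totals *Kpna6* in *Ypel4*+/+ and *Ipo13* and *Kpna4* in *Ypel4*-/- mice were called lower as well. In *Ypel4*+/+ mice leaving out a library made *Kpna1* pass without any Poly-E library or Ortho-E replicate 1, and *Xpo4* without Poly-E replicate 1 or 2 or Ortho-E replicate 3. The replicate block of the genotype comparisons is not an established pairing in either population, and it called no member. In simulated data 2-fold changes at 50 counts or more were recovered in 93.8% of genes for genotype in Poly-E, 92% in Ortho-E and 74.4% for the interaction. Smaller changes of the members could thus be missed at this depth. For members with fewer counts, such as *Nup43*, *Nup37* and *Ipo8* in Ortho-E, 2-fold changes could be missed too.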
